A study of Mus musculus with 35 samples.

Results

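Wee1, Coq10b, Il34, Mthfd1l, Spry1, Ppp2cb, Mmp14, BC030499, E130012A19Rik and Glt8d2 are 10 genes outside the core circadian clock chosen by the measured difference in their RNA level between PER2-S662D and control mice in these libraries. They were found by exact gene name among the 49568 gene names of the count tables, and all 10 passed the filter on low counts that left 18063 genes. Because S662D against control is the contrast that chose them, their levels in that contrast are given as a description with no test. The fasting responses, the mice labelled Per2 knockout and the differences between sets of libraries were tested.

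RNA was sequenced from the hypothalamus of 35 male B6/J mice at Zeitgeber time 16, counted in hours from lights-on. There were 10 fed and 10 fasted controls, 5 fed and 5 fasted PER2-S662D mice, and 5 fasted mice labelled Per2 ko. Fed mice ate ad libitum, and fasting lasted 16 h. S662D is a PER2 protein in which aspartate, whose charge can resemble a phosphate group, stands in place of a serine that can be phosphorylated. How the S662D and knockout alleles were made, and the age of the mice, are not given in the sources used here.

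PER2 is a repressor of the CLOCK-BMAL1 transcription factor, and its phosphorylation sets its stability and the pace of the clock. CLOCK-BMAL1 binds E-box DNA, the factors DBP, TEF and HLF bind D-boxes, and REV-ERB and ROR receptors bind another element called the RRE, so that rhythms pass from the core loop to genes with other functions. Such output genes include cell cycle, metabolic and secreted factors, and the hypothalamus, which holds the central pacemaker and feeding circuits, expresses many of them. Wee1 is a textbook example of an output gene with E-boxes.

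Promoter sequences are shown for Coq10b and BC030499, whose windows held letters of these elements, and for Mmp14, the member with the higher level in S662D mice in both feeding states. Each runs from 250 bases before to 50 bases after the RefSeq start site on the mouse build GRCm38.p6, plus strand: chr1:55052520-55052819 for Coq10b, chr11:78290591-78290890 for BC030499 (RefSeq symbol Rskr) and chr14:54431348-54431647 for Mmp14. Capitals mark the motif letters.
Coq10b: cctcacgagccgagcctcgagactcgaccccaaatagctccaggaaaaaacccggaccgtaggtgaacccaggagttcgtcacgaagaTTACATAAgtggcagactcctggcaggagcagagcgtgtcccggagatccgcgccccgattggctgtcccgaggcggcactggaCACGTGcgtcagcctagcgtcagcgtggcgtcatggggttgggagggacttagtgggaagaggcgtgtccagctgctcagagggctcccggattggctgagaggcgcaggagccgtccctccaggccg
BC030499: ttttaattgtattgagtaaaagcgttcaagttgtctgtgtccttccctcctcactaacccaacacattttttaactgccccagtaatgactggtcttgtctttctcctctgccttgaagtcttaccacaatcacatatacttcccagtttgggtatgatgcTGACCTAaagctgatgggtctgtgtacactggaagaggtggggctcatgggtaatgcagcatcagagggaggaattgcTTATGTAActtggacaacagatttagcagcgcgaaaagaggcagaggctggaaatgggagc
Mmp14: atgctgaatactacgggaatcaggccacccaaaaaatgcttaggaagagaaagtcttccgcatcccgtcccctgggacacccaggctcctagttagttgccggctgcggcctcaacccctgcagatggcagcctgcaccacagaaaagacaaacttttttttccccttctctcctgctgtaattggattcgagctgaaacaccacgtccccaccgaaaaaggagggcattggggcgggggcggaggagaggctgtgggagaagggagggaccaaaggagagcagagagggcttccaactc

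The letters searched on both strands were the E-box CACGTG, its variant CACGTT, the D-box TTATGTAA and the RRE core TAGGTCA. Of 32851 mouse promoters of the same length, 7.15% held CACGTG, 4.68% held CACGTT, 0.938% held TTATGTAA and 2.61% held TAGGTCA. The Coq10b window held CACGTG starting 78 bases before the start site and TTATGTAA on the minus strand, printed as TTACATAA, starting 162 bases before it. In the BC030499 window, TTATGTAA started 11 bases before the start site and TAGGTCA lay on the minus strand, printed as TGACCTA, from 89 bases before it. The windows of Mthfd1l, Spry1 and Mmp14 held none of the 4 words, and the windows of the other 5 members were not in the table used. For comparison, 18 of 21 listed clock genes had a window in that table, of which 5 held CACGTG, 4 CACGTT, 1 TTATGTAA and 2 TAGGTCA, and 7 of the 18 held none of the 4 words.

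Depth was 17959586 to 37027342 counts per library. It went with genotype: medians were 26857490 in fasted S662D mice against 18804234 in fasted controls, and 19537936 against 18729583 in the fed groups. Within S662D mice the median was thus also higher in the fasted group. The ranges overlapped there, at 18237587 to 37027342 fed and 21615313 to 34081435 fasted. Library numbers in the file headers of controls 1 to 5, controls 6 to 10, the labelled knockouts and the S662D mice do not interleave, so an effect of library number and one of genotype cannot be told apart. Within each control set, fed and fasted libraries also hold separate runs, 121 to 125 and 126 to 130, and 141 to 145 and 146 to 150. Leaving aside an additional final digit in some of them, S662D library numbers likewise run from 171 to 175 fed and from 176 to 180 fasted. Within a control set or within S662D mice, library number and feeding state therefore cannot be told apart either. Replicates 2, 3 and 4 of both S662D groups, 6 of the 10 S662D libraries, carry an additional final digit in their library number and stand apart from replicates 1 and 5: 2436 of 18063 genes differed between these sets. Levels are in CPM, edgeR's counts scaled to library size. Per2, the targeted gene, was at 28.2 ± 1.87 CPM (SD, n = 10) in fed and 29.0 ± 2.45 CPM in fasted controls, 18.7 ± 1.98 CPM in fed and 19.9 ± 2.38 CPM in fasted S662D mice (n = 5 each), and 30.3 ± 2.00 CPM in the mice labelled knockout (n = 5). Per2 RNA was thus not lower in the library group labelled knockout, and the deleted part is not given in the sources used here. All 15 hypothalamic neuron markers were detected in the tissue, while summed choroid plexus markers ranged from 25.5 to 1560 CPM across libraries with overlapping ranges in all groups. In bulk tissue, fewer cells of a type and less RNA per cell cannot be told apart.

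In S662D mice, 7 members had lower levels in each feeding state, compared with controls (Wee1, Coq10b, Il34, Mthfd1l, BC030499, E130012A19Rik and Glt8d2), Mmp14 was higher in both, and Spry1 and Ppp2cb were lower in fed mice only, by their means. Differences ranged from a log2 fold change of -1.04 (E130012A19Rik) to 0.79 (Mmp14) in fed mice, and from -1.13 (BC030499) to 0.68 (Mmp14) in fasted mice. Of the 10 members, 7 had no overlap between the fed S662D and fed control libraries, against 0.841% of all genes, and 5 had none between the fasted groups, against 0.515%. These counts follow from the way the members were picked. The plot of levels shows every library, and the plot of S662D minus control the fold changes.

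**Figure D1:**
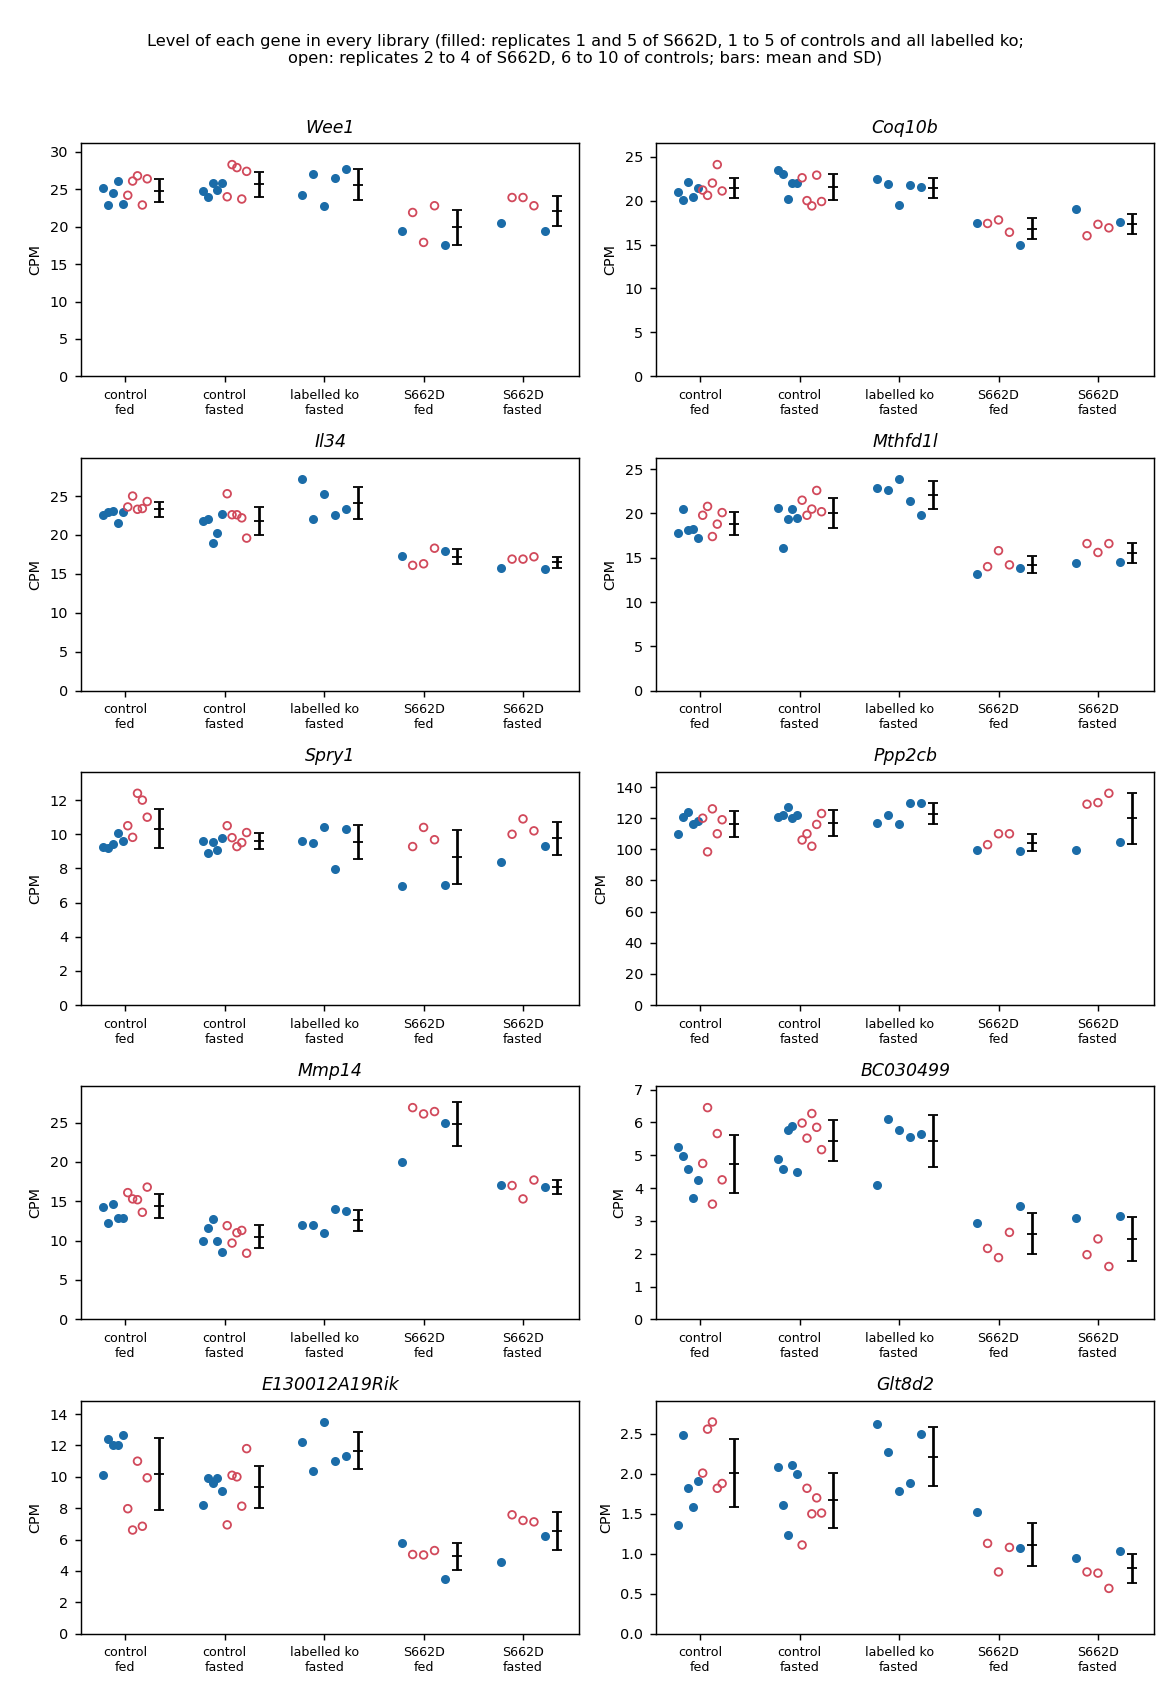
Level in CPM (linear axes starting at 0) of the 10 genes in each of the 35 libraries, by group, with the mean and SD as bars. Mmp14 sits at 20.0 to 26.9 CPM in fed S662D mice and at 12.2 to 16.8 CPM in fed controls, while in Ppp2cb the open S662D fasted points (replicates 2 to 4) stand above the filled ones.

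**Figure D2:**
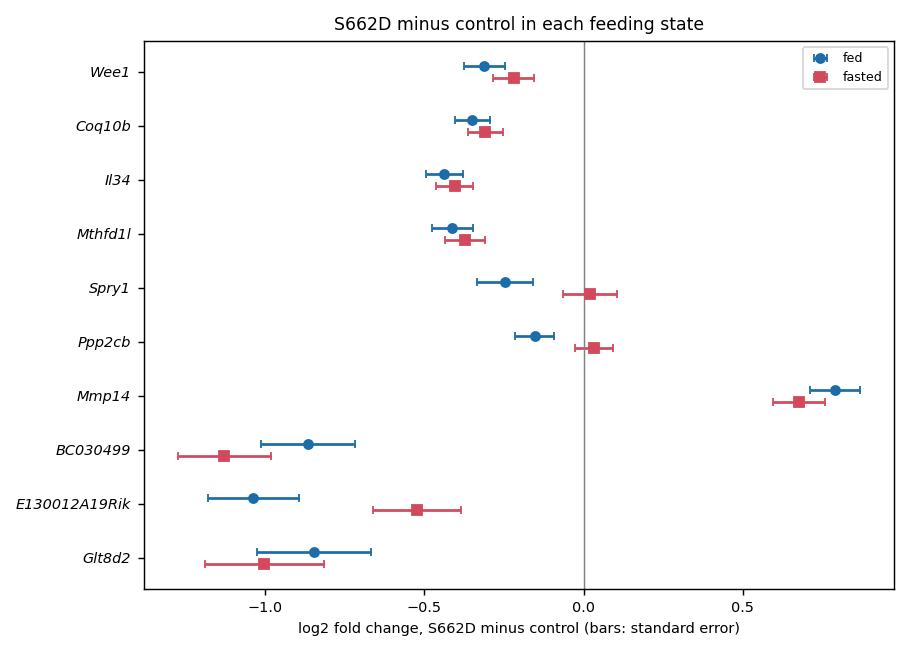
Log2 fold change of S662D minus control with its standard error for each gene, fed (circles) and fasted (squares). Mmp14 lies to the right of 0 in both states, and Spry1 and Ppp2cb lie near 0 in fasted mice.

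Wee1 (chr7:110122046-110143286 on mm10, plus strand) encodes the kinase that holds CDK1 inactive and so delays entry into mitosis. Its level in fed controls was 22.9 to 26.8 CPM with a median of 24.8 (n = 10), and in fasted controls 23.7 to 28.3 CPM with a median of 25.3. In fed S662D mice, replicates 1 to 5 were at 19.4, 21.9, 17.9, 22.8 and 17.5 CPM. All lay below the lowest fed control, though replicate 4 missed it by little. Fasted S662D mice were at 20.5, 23.9, 23.9, 22.8 and 19.4 CPM. They overlapped the range of fasted controls. S662D minus control was -0.31 (SE 0.064) on the log2 scale in fed mice and -0.22 (SE 0.063) in fasted mice.

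Coq10b and Mthfd1l serve mitochondrial metabolism. Coq10b (chr1:55052770-55072702, plus strand) encodes a lipid-binding protein needed for the function of coenzyme Q in the respiratory chain. Fed controls held 20.1 to 24.1 CPM with a median of 21.1, and fed S662D replicates 1 to 5 held 17.5, 17.4, 17.8, 16.4 and 14.9 CPM. Fasted controls held 19.4 to 23.5 CPM with a median of 22, and fasted S662D mice 19.1, 16.0, 17.3, 16.9 and 17.6 CPM. In each feeding state every S662D library was below every control, and the log2 fold changes were -0.35 (SE 0.056) fed and -0.31 (SE 0.055) fasted. Of its exon bases, 7.1% overlap the antisense gene E330011M16Rik, and reads were counted without regard to strand.

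Mthfd1l (chr10:3973118-4167081, plus strand) encodes the mitochondrial enzyme that releases formate from formyl-tetrahydrofolate and feeds the one-carbon cycle. In fed controls it ranged from 17.2 to 20.8 CPM with a median of 18.5. Fed S662D mice were at 13.2, 14.0, 15.8, 14.2 and 13.8 CPM, all below the controls. In the fasted state, controls ranged from 16.1 to 22.6 CPM (median 20.4) and S662D mice were at 14.4, 16.6, 15.6, 16.6 and 14.5 CPM. The fasted groups overlapped through 1 control, replicate 2, whose 16.1 CPM lay below the others' 19.4 CPM or more. The log2 fold change was -0.41 (SE 0.064) fed and -0.37 (SE 0.063) fasted.

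Il34 (chr8:110741829-110805924, minus strand) encodes interleukin-34, a ligand of the CSF1 receptor that neurons make and that sustains microglia. It was at 21.6 to 25 CPM (median 23.2) in fed and 19 to 25.3 CPM (median 22.1) in fasted controls. Fed S662D replicates were at 17.3, 16.1, 16.3, 18.3 and 18 CPM, and fasted ones at 15.8, 16.9, 16.9, 17.2 and 15.6 CPM. Neither state overlapped with its controls, and the log2 fold changes were -0.44 (SE 0.057) fed and -0.41 (SE 0.057) fasted. Summed markers of microglia, the cells that IL-34 acts on, were at 185 to 213 CPM in fed S662D and 187 to 216 CPM in fed control mice, and none of the 6 markers passed the test in either feeding state.

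Mmp14 (chr14:54431612-54441265, plus strand) encodes MT1-MMP, a membrane-anchored protease that cleaves collagen and activates pro-MMP2. Fed controls were at 12.2 to 16.8 CPM with a median of 14.5, and fed S662D replicates 1 to 5 at 20.0, 26.9, 26.1, 26.4 and 24.9 CPM. Fasted controls were at 8.40 to 12.8 CPM with a median of 10.5, and fasted S662D replicates at 17.1, 17.0, 15.3, 17.7 and 16.8 CPM. Every S662D library was above every control of its feeding state, with a log2 fold change of 0.79 (SE 0.079) fed and 0.68 (SE 0.082) fasted, or 1.73-fold and 1.60-fold. Ordered by mean, fed S662D mice stood highest (24.9 ± 2.81 CPM, SD, n = 5), then fasted S662D (16.8 ± 0.914), fed controls (14.4 ± 1.50, n = 10), the fasted labelled knockouts (12.5 ± 1.27) and fasted controls (10.5 ± 1.44, n = 10). The fasted S662D and fed control ranges overlapped, as did those of each neighbouring pair below them.

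Markers of other cell types moved with these groups. Of 7 endothelial markers, 3 rose in fed S662D mice (Cldn5, Flt1 and Kdr) and Ly6c1 fell, and 4 rose in fasted S662D mice. Summed endothelial levels were 204 to 237 CPM in fed controls and 211 to 247 CPM in fed S662D mice, and 183 to 212 against 191 to 255 CPM in the fasted groups. Of 4 oligodendrocyte precursor markers, 3 rose in fed S662D mice (Pdgfra, Cspg4 and Gpr17) and 2 in fasted ones. Summed precursor levels were 113 to 129 CPM in fed controls and 141 to 167 CPM in fed S662D mice. The fasted groups overlapped, at 108 to 139 CPM in controls and 127 to 171 CPM in S662D mice. Among the latter, replicates 1 and 5 were at 127 to 142 CPM and replicates 2 to 4 at 148 to 171 CPM. No marker of either list was at 0. Their part in the level of Mmp14 or of any other member was not tested.

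BC030499, Spry1 and Ppp2cb act in kinase and phosphatase signalling. BC030499 (chr11:78290841-78296805, plus strand) is named Rskr in RefSeq, for a kinase related to the ribosomal S6 kinases. It was at 3.51 to 6.45 CPM (median 4.67) in fed and 4.48 to 6.27 CPM (median 5.64) in fasted controls. Fed S662D mice were at 2.93, 2.16, 1.88, 2.65 and 3.45 CPM, and fasted ones at 3.08, 1.97, 2.45, 1.61 and 3.14 CPM. Neither state overlapped, although the highest fed S662D library (3.45 CPM) came close to the lowest fed control (3.51 CPM). The log2 fold change was -0.86 (SE 0.148) fed and -1.13 (SE 0.146) fasted, on 34 to 106 counts per library in S662D mice. Another gene, Gm11193, overlaps 9.8% of its exon bases on the opposite strand.

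Spry1 (chr3:37639947-37644598, plus strand) encodes Sprouty1, an inhibitor of receptor tyrosine kinase signalling to ERK that is itself induced by that signalling. Its level was 9.17 to 12.4 CPM (median 9.96) in fed and 8.88 to 10.5 CPM (median 9.57) in fasted controls. Fed S662D mice were at 6.98, 9.28, 10.4, 9.68 and 7.01 CPM, so that replicates 1 and 5 were the 2 lowest libraries and replicates 2 to 4 lay within the control range. Fasted S662D mice were at 8.37, 10.0, 10.9, 10.2 and 9.31 CPM. The log2 fold change was -0.25 (SE 0.087) fed and 0.020 (SE 0.085) fasted. Spry1 is uncertain as a measurement of its own RNA, since 24.4% of its exon bases overlap the antisense gene Gm42922.

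Ppp2cb (chr8:33599625-33619441, plus strand) encodes the beta form of the catalytic subunit of protein phosphatase 2A, an enzyme that also acts on clock proteins. It was the most abundant member per length, at a mean of 79.0 CPM per kb over all libraries, against 10.8 for Il34 and 0.285 for Glt8d2, the least abundant. Controls ranged from 98.4 to 126 CPM fed and from 102 to 127 CPM fasted. Fed S662D mice were at 99.5, 103, 110, 110 and 99.1 CPM, within the control range. In the fasted state replicates 2, 3 and 4 were at 129, 130 and 136 CPM, above every fasted control, while replicates 1 and 5 were at 99.4 and 105 CPM. The pooled log2 fold change of 0.032 (SE 0.059) in fasted mice thus combined libraries on either side of the controls. In fed mice it was -0.15 (SE 0.060).

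E130012A19Rik (chr11:97627389-97629702, minus strand), now named Epop, encodes a protein that links the Elongin BC complex to Polycomb repressive complex 2, which represses genes through histone methylation. Controls ranged widely, from 6.61 to 12.7 CPM (median 10.6) fed and from 6.94 to 11.8 CPM (median 9.74) fasted. Fed S662D mice were at 5.77, 5.05, 5.02, 5.30 and 3.51 CPM, all below the controls. Fasted S662D mice were at 4.54, 7.58, 7.22, 7.13 and 6.25 CPM and overlapped the controls. The log2 fold change was -1.04 (SE 0.143) fed and -0.52 (SE 0.137) fasted.

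Glt8d2 (chr10:82650433-82690650, minus strand) encodes a protein with a glycosyltransferase 8 domain. At 12 to 59 counts per library it was the member measured with the lowest counts. Controls held 1.36 to 2.65 CPM fed and 1.11 to 2.11 CPM fasted. Fed S662D mice held 1.52, 1.13, 0.773, 1.08 and 1.07 CPM, of which replicate 1 lay within the control range, and fasted ones 0.949, 0.773, 0.758, 0.567 and 1.04 CPM, all below the controls. The log2 fold change was -0.85 (SE 0.179) fed and -1.0 (SE 0.186) fasted. The gene Tdg overlaps 6.4% of its exon bases on the opposite strand.

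The differences between S662D and control mice were recomputed within the sets of libraries. The members were picked on that difference in these same libraries, which itself favours the same sign in each set. For Coq10b, Il34, Mthfd1l, Mmp14, BC030499, E130012A19Rik, Glt8d2 and Wee1, the sign was kept with S662D replicates 1 and 5 only, with replicates 2 to 4 only, and against controls 1 to 5 or 6 to 10 only, in both feeding states. Il34 ranged from -0.48 to -0.39 in fed mice and from -0.47 to -0.36 in fasted mice over these 4 choices. The value of Mmp14 ranged from 0.64 to 0.90 in fed and from 0.67 to 0.69 in fasted mice. BC030499 in fasted mice was -1.43 (SE 0.169) with replicates 2 to 4 and -0.80 (SE 0.171) with replicates 1 and 5. Wee1 in fasted mice was -0.13 (SE 0.070) with replicates 2 to 4 and -0.36 (SE 0.079) with replicates 1 and 5. Spry1 and Ppp2cb depended on the set: Spry1 in fed mice was -0.084 (SE 0.088) with replicates 2 to 4 and -0.57 (SE 0.116) with replicates 1 and 5, and Ppp2cb in fasted mice was 0.17 (SE 0.058) against -0.19 (SE 0.070).

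**Figure D3:**
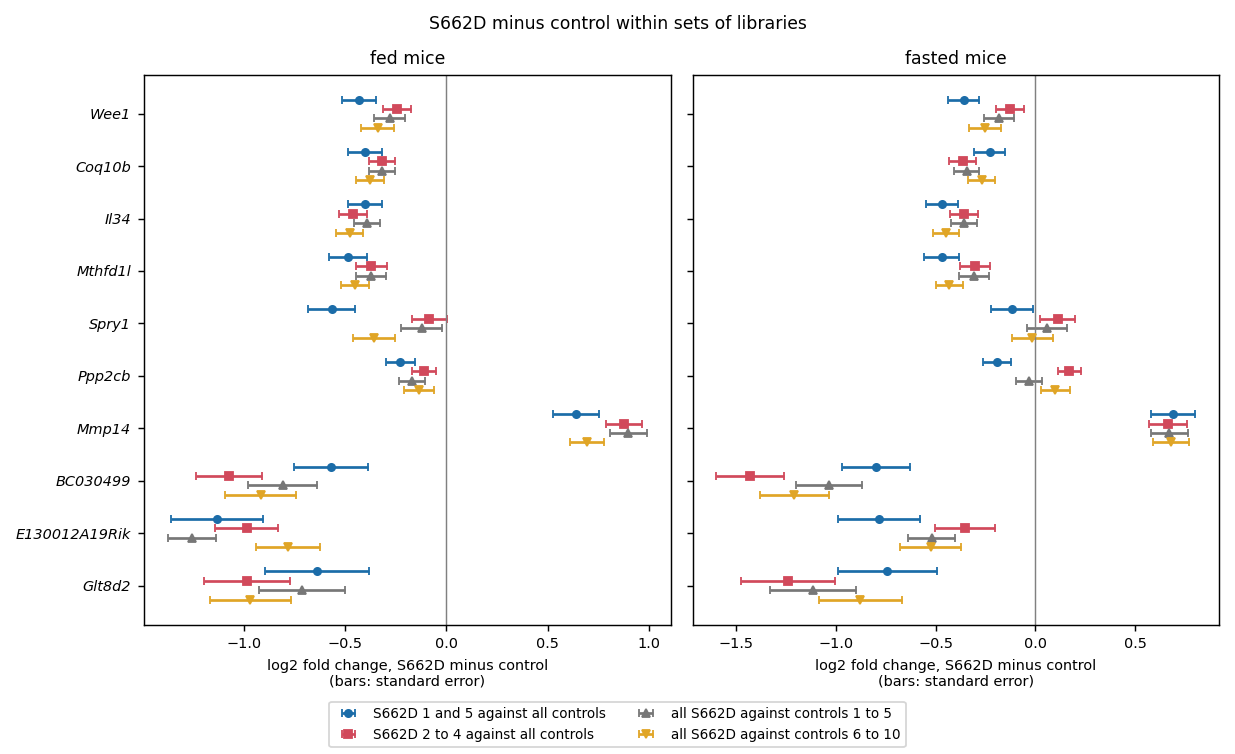
Log2 fold change of S662D minus control with its standard error, in fed (left) and fasted (right) mice, for 4 choices of libraries. Spry1 in fed mice moves from -0.57 with S662D replicates 1 and 5 to -0.084 with replicates 2 to 4, and Ppp2cb in fasted mice changes side of 0, while Mmp14 stays to the right of 0 and Il34 to the left.

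Replicates 2 to 4 were then compared with replicates 1 and 5 within S662D mice, in both feeding states together. The test across all genes (edgeR quasi-likelihood, p-values adjusted by Benjamini-Hochberg) called 4 of the 10 members (adjusted p below 0.05), against 13.5% of all genes. Spry1 was higher in replicates 2 to 4 by 0.35 on the log2 scale (SE 0.087, adjusted p = 0.00495) and Ppp2cb by 0.24 (SE 0.059, adjusted p = 0.00391). Wee1 was higher by 0.21 (SE 0.068, adjusted p = 0.0301). BC030499 fell by 0.57 (SE 0.153, adjusted p = 0.00897) from replicates 1 and 5 to replicates 2 to 4. The sets did not overlap in either feeding state, with the same direction in both, for 4 of the 10 members (Spry1, Ppp2cb, BC030499 and Mthfd1l, which was not called), against 15.3% of all genes. Wee1 overlapped in fed mice. The remaining 6 members had adjusted p of 0.195 or more, among them Il34 (0.027, SE 0.067), Coq10b (-0.031, SE 0.065) and Mmp14 (0.11, SE 0.091). Per2 itself was higher by 0.24 (SE 0.071, adjusted p = 0.0161). Wee1 was no longer called on leaving out fed S662D replicate 2, 4 or 5 or fasted replicate 1, 2, 3 or 5 (adjusted p = 0.0564 to 0.112). Controls 1 to 5 against 6 to 10, compared in the same way, gave 0 called members and 0% of all genes called (lowest adjusted p 0.139), with 7.97% of all genes and 2 members at an unadjusted p under 0.05, E130012A19Rik (0.24, SE 0.103) and Spry1 (-0.15, SE 0.068). DESeq2 called 0 members in that comparison and 14 genes in all.

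Of the 148 tested genes in 10 lists of the members' pathways, 30 were called between the sets (24 higher and 6 lower in replicates 2 to 4, 20.3%), against 13.5% of all genes, where 1548 of 18063 were higher. Of 20 tested Sprouty, Spred and ERK feedback genes other than Spry1, 11 were higher in replicates 2 to 4 and 0 lower, with a median log2 fold change of 0.18 against -0.0089 over all genes. Named after their values were seen, they include the ERK phosphatase gene Dusp4 (0.53, SE 0.114, adjusted p = 0.00119), the transcription factor gene Etv5 (0.28, SE 0.064, adjusted p = 0.00205) and Spry4 (0.25, SE 0.078, adjusted p = 0.0275). Of 22 protein phosphatase 2A genes other than Ppp2cb, 5 were higher and 0 lower, 4 of them B56 regulatory subunits such as Ppp2r5d (0.20, SE 0.043, adjusted p = 0.00104). Among the other lists, 3 of 9 GT8 relatives of Glt8d2 were higher and 1 lower, 3 of 16 metalloproteinase and inhibitor genes were higher, and 2 of 12 CSF1 receptor genes were higher and 1 lower. A single gene was lower in each of the mitosis, coenzyme Q, Polycomb and S6 kinase lists, and 0 of 19 one-carbon genes were called. Of 21 core clock and output genes, 7 were higher and 0 lower. Markers moved with the split as well: 3 endothelial, 2 mural, 2 oligodendrocyte precursor, 3 thalamic, 1 microglial, 1 astrocyte and 1 cortical or striatal marker were higher in replicates 2 to 4, and 2 hypothalamic neuron markers and 1 oligodendrocyte marker were lower. Summed thalamic markers were at 1410 to 1680 CPM in fed replicates 2 to 4 and 1220 to 1240 CPM in fed replicates 1 and 5. Summed choroid plexus markers were at 25.5 to 44.2 CPM in fasted replicates 2 to 4 and 54.8 to 302 CPM in fasted replicates 1 and 5. In fed mice the sets overlapped, at 57.2 to 704 CPM in replicates 2 to 4 and 36.5 to 685 CPM in replicates 1 and 5. With both feeding states together, 0 of 8 choroid plexus markers were called. The part of these markers in the split was not tested, and what the final digit stands for is not given in the sources used here.

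**Figure D4:**
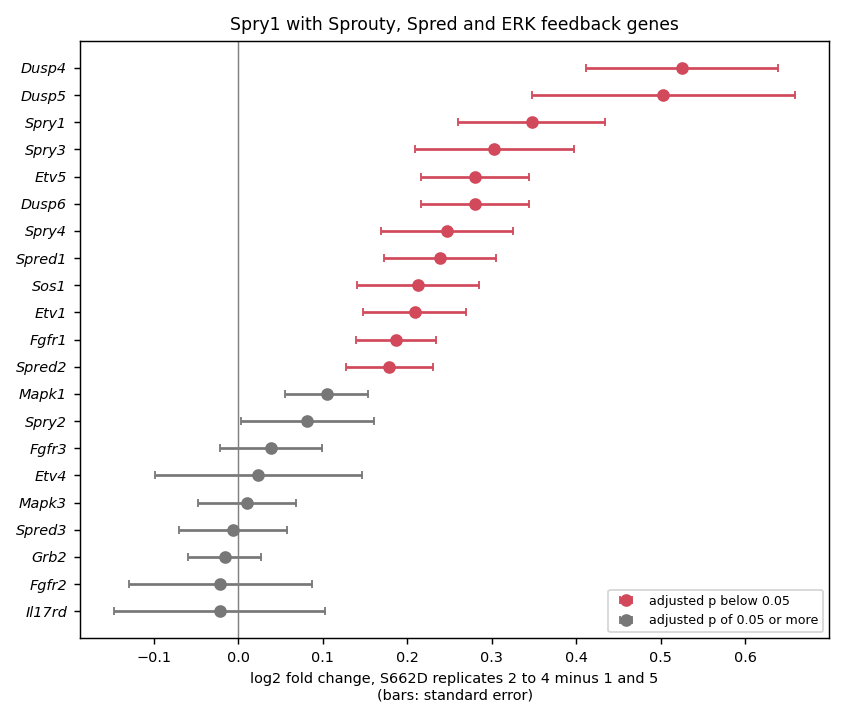
Log2 fold change with its standard error of S662D replicates 2 to 4 minus replicates 1 and 5, for Spry1 and 20 genes of the Sprouty, Spred and ERK feedback list. Genes with an adjusted p below 0.05 all lie to the right of 0, from Spred2 at 0.18 to Dusp4 at 0.53.

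Fasting lowered Mmp14 in both genotypes and changed no other member past the threshold. In controls, 1 of 10 members was called, against 3.88% of all genes: Mmp14 fell by 0.46 on the log2 scale (SE 0.071, adjusted p = 1.52e-05, edgeR), from 14.4 to 10.5 CPM, though the groups overlapped between 12.2 and 12.8 CPM. In S662D mice, 1 of 10 was called, against 2.64% of all genes: Mmp14 fell by 0.57 (SE 0.091, adjusted p = 4.76e-05), from 24.9 to 16.8 CPM, and the lowest fed library (20.0 CPM) lay above the highest fasted one (17.7 CPM). It was the 1 member without overlap between fed and fasted S662D mice, against 3.30% of all genes. The fall in controls was 0.35 on the log2 scale within replicates 1 to 5 (adjusted p = 0.0211) and 0.56 within replicates 6 to 10 (adjusted p = 0.000976). In S662D mice, Mmp14 fell by 0.67 within replicates 2 to 4 (adjusted p = 0.000162) and by 0.41 within replicates 1 and 5, where it did not pass the test (adjusted p = 0.665). These comparisons share libraries with the contrast that chose the members. Beside the fall of Mmp14 in controls, 2 of 7 endothelial markers and 2 of 6 microglial markers (Cx3cr1 and P2ry12) fell, and summed endothelial markers were at 204 to 237 CPM fed and 183 to 212 CPM fasted. Their part in it was not tested.

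The other members' fasting responses in controls lay between -0.27 (Glt8d2, SE 0.140, adjusted p = 0.421) and 0.20 (BC030499, SE 0.113, adjusted p = 0.472). In S662D mice they lay between -0.42 (Glt8d2, SE 0.216, adjusted p = 0.367) and 0.40 (E130012A19Rik, SE 0.163, adjusted p = 0.232), with Ppp2cb at 0.20 (SE 0.068, adjusted p = 0.132). Ppp2cb passed the test when S662D replicates 2 to 4 alone were used (0.29, adjusted p = 0.0152) and when fasted S662D replicate 1 was left out (0.26, adjusted p = 0.0189). The difference between the fasting responses of the genotypes was called for 0 of 10 members and 0% of all genes (lowest adjusted p 0.762), and DESeq2 called 0 genes as well. At an unadjusted p under 0.05 stood 6.37% of all genes and 3 members: E130012A19Rik (0.51, SE 0.196), Spry1 (0.27, SE 0.121) and Ppp2cb (0.19, SE 0.084). Picking members for a genotype difference in a single feeding state itself favours a difference here. The count of members is therefore not comparable with the share of all genes. With controls 1 to 5 only, E130012A19Rik passed the test (0.74, adjusted p = 0.0251), as did 486 of 17775 genes, and with controls 6 to 10 only its value was 0.26 (adjusted p = 0.988).

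**Figure D5:**
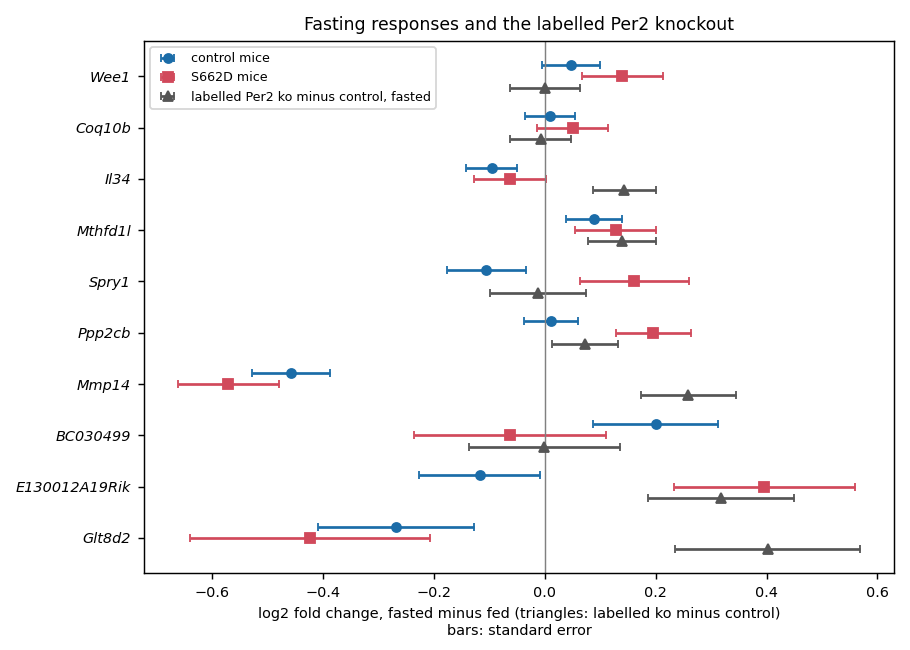
Log2 fold change with its standard error of fasted minus fed mice in controls (circles) and S662D mice (squares), and of labelled Per2 knockout minus control mice, both fasted (triangles). Mmp14 lies to the left of 0 for fasting in both genotypes, at -0.46 and -0.57.

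In the fasted mice labelled Per2 knockout, 0 of 10 members differed from fasted controls past the threshold, against 0.0277% of all genes, and DESeq2 likewise called 0 members. At an unadjusted p under 0.05 stood 5 members, all higher in the labelled knockouts, and 6.07% of all genes. Mmp14 was at 12, 12, 11, 14.0 and 13.8 CPM (log2 fold change 0.26, SE 0.086, adjusted p = 0.671). Il34 was at 27.2, 22.1, 25.3, 22.6 and 23.4 CPM (0.14, SE 0.056, adjusted p = 0.76). Mthfd1l stood at 22.9, 22.7, 23.9, 21.4 and 19.8 CPM (0.14, SE 0.061, adjusted p = 0.817). All of these groups overlapped the fasted controls. E130012A19Rik (0.32, SE 0.131, adjusted p = 0.779) was at 12.2, 10.4, 13.5, 11 and 11.3 CPM. Glt8d2 (0.40, SE 0.167, adjusted p = 0.781) was at 2.63, 2.27, 1.79, 1.89 and 2.50 CPM. No member's range was separate from that of the controls, against 0.0941% of all genes. The remaining members were within 0.073 of 0 on the log2 scale, with Wee1 at 22.7 to 27.7 CPM and Coq10b at 19.5 to 22.5 CPM.

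S662D and labelled knockout mice, both fasted, share the fasted controls as their reference. As a description, S662D minus labelled knockout was -1.40 (SE 0.205) for Glt8d2, -1.13 (SE 0.164) for BC030499, -0.84 (SE 0.154) for E130012A19Rik, -0.55 (SE 0.065) for Il34 and -0.51 (SE 0.071) for Mthfd1l. Coq10b was at -0.30 (SE 0.064) and Wee1 at -0.22 (SE 0.073). Mmp14 was at 0.42 (SE 0.095), smaller than its 0.68 against controls. Spry1 (0.032, SE 0.099) and Ppp2cb (-0.041, SE 0.068) were close to 0.

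Genes of the members' own pathways were followed in 10 lists with 148 tested genes that are neither members nor core clock genes. Of these, 7 were called in fed S662D mice (4 higher, 3 lower, 4.73%) and 10 in fasted ones (3 higher, 7 lower, 6.76%), against 4.69% and 5.57% of all genes, a share near the background. For Wee1, 0 of 11 other genes of entry into mitosis were called in fed mice, and Cdc25b, the phosphatase that opposes Wee1 on CDK1, was lower in fasted mice (-0.39, SE 0.105, adjusted p = 0.0222). For Coq10b, 1 of 12 coenzyme Q genes was called in both states, Pdss1, which starts the synthesis of the side chain (-0.30, SE 0.086, adjusted p = 0.0331 fed, and -0.29, SE 0.084, adjusted p = 0.0311 fasted). For Mthfd1l, 1 of 19 one-carbon genes was called, Amt of the glycine cleavage system in fasted mice (-0.19, SE 0.056, adjusted p = 0.0374). None of 12 genes around the CSF1 receptor that Il34 binds was called in either state, including Csf1 and Csf1r.

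For Mmp14, 2 of 16 metalloproteinase and inhibitor genes were higher in fed S662D mice: the membrane-type protease gene Mmp15 (0.23, SE 0.061, adjusted p = 0.0257) and Timp3, which inhibits such proteases (0.22, SE 0.065, adjusted p = 0.0402). Mmp15 was also higher in fasted mice (0.27, SE 0.061, adjusted p = 0.00848), at 53.6 to 68.0 CPM against 43.9 to 57.5 CPM in controls. For Spry1, Il17rd, another inhibitor of FGF signalling, was higher in fed mice (0.45, SE 0.105, adjusted p = 0.0103) and Spred2 in fasted mice (0.17, SE 0.050, adjusted p = 0.0372). For Ppp2cb, Lcmt1, which methylates the catalytic subunit, was lower in fed mice (-0.14, SE 0.042, adjusted p = 0.0468) and the regulatory subunit Ppp2r2c higher in fasted mice (0.12, SE 0.035, adjusted p = 0.0418). The S6 kinase gene Rps6kb2 was lower in fasted mice (-0.33, SE 0.099, adjusted p = 0.0409), as was the Polycomb cofactor Mtf2 (-0.30, SE 0.073, adjusted p = 0.0108). Among 9 relatives of Glt8d2, Glt8d1 was lower in both states (-0.23, adjusted p = 0.0199 fed, and -0.26, adjusted p = 0.00676 fasted), Uggt2 was lower in fasted mice (-0.21, adjusted p = 0.0376) and Uggt1 higher in fed mice (0.21, adjusted p = 0.0159).

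Pathway calls varied with the libraries used. With S662D replicates 2 to 4 only, 36 and 34 of the 148 genes were called in fed and fasted mice, beside 3106 and 3148 of 18421 genes in all. With replicates 1 and 5 only, with a term for the split, or with controls 6 to 10 only, 0 were called. Few genes passed in all under these settings: 16 fed and 21 fasted of 18746 with replicates 1 and 5. With the term, 23 and 20 of 18063 passed, and with controls 6 to 10, 33 and 48 of 17812. In fed mice, leaving out S662D replicate 1, 2, 3, 4 or 5 gave 16, 0, 1, 0 and 18 calls, and leaving out control replicate 7 or 9 gave 11 each. In fasted mice, leaving out S662D replicate 1, 2, 3 or 4 gave 17, 1, 2 and 0 calls, and leaving out control replicate 1, 5 or 8 gave 6, 5 and 6. Calls over all genes moved with the same choices, for example in fed mice from 847 to 66 without S662D replicate 4. Rps6kb2 in fasted mice was 0.034 (adjusted p = 0.997) with replicates 1 and 5 only.

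Over the 35 libraries, the genes whose log2 CPM was most like that of a member were, for several members, clock genes. Among 15469 genes, Il34 was most like Tef (Pearson r = 0.92) and Nr1d2 (0.88), Coq10b most like Nr1d2 (0.86) and Per2 (0.85), Mthfd1l most like Ciart (0.84) and Per2 (0.81), and Wee1 most like Tef (0.73) and Ciart (0.71). Per2 was also the second most like E130012A19Rik (0.78, after Plk5 at 0.80). These genes are themselves lower in S662D mice, for example Tef by a log2 fold change of -0.48 (SE 0.037) and Nr1d2 by -0.57 (SE 0.048) in fed mice, and the libraries compared share that genotype difference. After subtracting each group's mean, r was 0.44 for Il34 and Tef, 0.35 for Coq10b and Nr1d2, 0.39 for Wee1 and Tef, and 0.27 for Coq10b and Per2. It was 0.043 for Il34 and Nr1d2, -0.008 for Wee1 and Ciart, 0.006 for Mthfd1l and Ciart, 0.068 for Mthfd1l and Per2, and 0.15 for E130012A19Rik and Per2. Subtracting group means did not take out the split among S662D libraries, between which Wee1 and Per2 were called.

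The other members reported here were most like other genes, apart from Hlf for Spry1. Mmp14 was most like Dtx4 (0.84) and Sash1 (0.83), and BC030499 most like Snhg11 (0.85) and 4933439C10Rik (0.84). Ppp2cb was most like Ybx3 (0.79) and Car7 (0.74), and Spry1 most like Hrh3 (0.56) and the D-box factor gene Hlf (0.54). For Ppp2cb and Ybx3, r stayed at 0.75 after subtracting group means, for BC030499 and Snhg11 at 0.72 and for Spry1 and Hrh3 at 0.63. The means were those of whole groups, so the split among S662D libraries remained in every r given after subtraction. Ppp2cb, BC030499 and Spry1 are among the members called between the sets of that split. Its part in these r values was not tested. Among the members themselves, the 7 that were lower in S662D mice in both states had r of 0.53 to 0.80 over all libraries (21 pairs, median 0.69) and -0.53 to 0.29 after subtracting group means (median -0.069). Libraries and scaling are shared by all of these values, which are descriptions.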

How the data were processed

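Raw counts of fragments per gene were deposited by the authors, with 1 table per library and mouse. Per the submitters' processing notes, STAR 2.7.10b and Subread were used with the build mm10. Per the file headers, featureCounts 2.0.1 summed exons by gene name (GENCODE vM12), counting multi-mapping reads and with no strand option, so reads of overlapping antisense genes are included. Here, genes were kept with filterByExpr (minimum count 10), scaled with TMM and fitted with edgeR 4.0.16 (R 4.3.3) in 1 quasi-likelihood fit of all 35 libraries with a mean per group. Further fits added a term for S662D replicates 2 to 4 or controls 1 to 5. Benjamini-Hochberg adjustment ran over all 18063 genes, with a call below 0.05. CPM is edgeR's cpm, and log2 CPM used a prior count of 2. Each p-value sets a difference against the spread between these mice within their groups. In the fit with only a mean per group, that spread includes the split among S662D mice. Alternatives included DESeq2 1.42.0. The code was tested on simulated data. No libraries were identical (lowest chi-square per degree of freedom 2.47 over 120 pairs).

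The members, pathway lists and library splits were chosen with earlier results of these data known. The genes named are the members, Per2, each pathway gene called in S662D against control in either feeding state, and for each member the 2 genes most like it with a mean of at least 1 CPM. The likeness result for Glt8d2 is not reported here. Others were named after their values were seen. Promoters are from RefSeq (GRCm38.p6) and matched 5 of the 10 members. A gene is called uncertain where over 10% of its exon bases overlap another gene.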

Additional observations from a re-analysis of the deposited data

Results flagged for a closer look

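In 50 groups of libraries (10 members in 5 groups), 4 held a library far from the others by Dixon's criterion, which chance meets in about 1 in 20 groups. Mmp14 in fed S662D replicate 1 was at 20.0 CPM, with the nearest of the other 4 at 24.9 CPM. It was still above every fed control. Coq10b in fed control replicate 9 was at 24.1 CPM, against 22.1 CPM for the next highest. Mthfd1l in fasted control replicate 2 was at 16.1 CPM, against 19.4 CPM for the next lowest, and this library made the fasted groups overlap. BC030499 in labelled knockout replicate 1 was at 4.08 CPM, against 5.56 CPM for the next lowest.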

How the results depend on the processing

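The number of members called was unchanged under every alternative run for fasting in controls (1), the labelled knockout (0) and control sets (0). For fasting in S662D mice it moved from 1 to 2 with S662D replicates 2 to 4 only and to 0 with replicates 1 and 5 only, and ranged from 1 to 2 on leaving out each library. For the difference between fasting responses it was 1 with controls 1 to 5 only. For S662D replicates 2 to 4 against 1 and 5 it ranged from 3 to 4 on leaving out each library and was 2 with the replicate block. Pathway genes called, 7 in fed mice, became 4 with no low-count filter, 16 with DESeq2, 16 with controls 1 to 5 only, 0 with controls 6 to 10 only, 36 with S662D replicates 2 to 4 only, 0 with replicates 1 and 5 only, 0 with a term for the split and 11 with the replicate block, and ranged from 0 to 18 on leaving out each library. In fasted mice, 10 became 5 with no low-count filter, 2 with only the groups of the comparison in the fit, 16 with controls 1 to 5 only, 0 with controls 6 to 10 only, 34 with S662D replicates 2 to 4 only, 0 with replicates 1 and 5 only and 0 with the term, and ranged from 0 to 17. Rps6kb2 in fasted mice reversed to 0.034 with S662D replicates 1 and 5 only. Fits on subsets hold fewer samples, and the cause of the other changes was not tested.

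Same-numbered replicates were not taken as pairs, since not every pair's correlation of deviations was over 0.1: 0 of 10 fed and fasted control pairs, 2 of 5 S662D pairs, 3 of 5 between fed controls and fed S662D mice, 1 of 5 between the fasted groups, and 0 of 5 between labelled knockouts and controls. With the replicate block Spry1 and BC030499 were still called between the S662D sets (adjusted p 0.0358 and 0.0492), and Wee1 and Ppp2cb were not (0.158 and 0.123, edgeR), and 488 genes were called in all, against 2436 without it. The median absolute log2 fold change of the members, 0.41 for S662D minus control with both feeding states pooled, lay between 0.36 and 0.48 under the settings run. The members were picked on that difference in these same libraries. Glt8d2, at 12 to 59 counts per library, is the member most limited by depth.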
